A study of Rattus norvegicus with 24 samples.

Results

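Gene expression in rat hippocampus 12 h after an operation that causes ischemia was compared with that at 0 h. The comparison used 8 of the 24 arrays of a time course, all with the sample titles SHAM_0H, TOL_0H, SHAM_12H or TOL_12H: 4 arrays at 0 h and 4 at 12 h. At each of these times 2 arrays came from the SHAM arm, which the labels call hypoxia sensitive, and 2 from the TOL arm, which they call hypoxia tolerant. Each pair held 1 array of the first experiment and 1 of the second. By the labels all of these groups had the operation, the 0 h groups included. No source used here gives the strain, sex, age, pooling of animals, time of day or way of inducing tolerance. The remaining arrays, at 1, 3, 24 and 48 h, serve below only to place 12 h within the course.

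A brief loss of blood flow damages proteins and starves neurons of energy. Cells answer with the heat shock response, in which the transcription factor Hsf1 binds heat shock elements in promoters and switches on chaperones, the proteins that refold or hold damaged proteins. Immediate early genes, which need no new protein synthesis to be switched on, respond to calcium entry and synaptic activity. The hippocampus is among the brain regions most sensitive to ischemia, and a mild earlier insult can make it tolerant of a later one.

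At 12 h chaperone genes led the rises shared by both arms. Of the 4083 genes tested, 113 rose (2.77%) and 83 fell (2.03%), 4.8% in all. These calls come from limma's moderated test with arm as a block and a Benjamini-Hochberg adjusted p under 0.05. Hspa1a, the inducible Hsp70, went from below the noise level of the arrays to a mean of 5071 units, and Hsph1, Hspb1, Hspd1, Hspe1, Dnaja1 and Dnajb1 rose with it. Among the genes that fell were the mineralocorticoid receptor Nr3c2, the calmodulin gene Calm2 and the GABA receptor subunit Gabra5.

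Median intensities lay between 51.6 and 80.8 units at 0 h and between 58.5 and 65.2 at 12 h, and the 3′ to 5′ signal ratio of Gapdh, a measure of intact RNA, was 1.00 to 1.14 at 0 h and 1.03 to 1.25 at 12 h. The same ratio of actin was at most 1.69 at 0 h and 1.46 to 2.00 at 12 h, and its highest values among the 24 arrays were those of the SHAM 12 h arrays, 1.99 and 2.00. The part of RNA quality in the differences below was not tested. The neuron markers fitted the labelled tissue, with Nrgn, Hpca and Snap25 at 5043, 3603 and 2801 units at 0 h. Levels are quantile-normalised intensities in arbitrary units, and log2 differences are given with their standard error. The labels do not tell whether both arrays of a group stem from different animals. The p-values therefore reflect the spread among these arrays alone, which may be technical. Pearson's r between the replicates of a group was 0.921 to 0.942 over probe sets, and the small number of arrays limits the precision.

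On the level of probe sets, 341 of 7092 passed (4.81%), 204 higher (2.88%) and 137 lower (1.93%) at 12 h. In 331 of them all 4 arrays of one time lay beyond all 4 of the other, against 14.5% of all tested probe sets. The calls were made on these same arrays, and such a test favours groups that do not overlap. The count of 331 is therefore no separate support for the calls. More than 2-fold differences were found in 98 of the rises and 41 of the falls. The median log2 difference over all tested probe sets was -0.02. Leaving out 1 array at a time gave 106 to 262 calls, with 106 without SHAM 12 h replicate 1, 121 without SHAM 12 h replicate 2, 138 without SHAM 0 h replicate 2, 149 without SHAM 0 h replicate 1, 176 without TOL 0 h replicate 1 and 187 without TOL 12 h replicate 2. Among the 73 genes whose stability was followed singly, 28 kept their call whichever array was left out.

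Time and batch were partly tied. The arrays' experiment files place all SHAM arrays of 0 and 12 h and TOL 0 h replicate 1 on a first hybridisation day, and the other 3 TOL arrays on a second. With the day as a block, which here has the same effect as leaving out TOL 0 h replicate 1, 176 probe sets passed, 124 higher and 52 lower. Within SHAM, all on the first day, 86 passed when its 4 arrays were fitted alone, and within TOL 40 did. No inferred fluidics run held both 0 h and 12 h arrays of these groups, so run and time cannot be told apart within the 8 arrays. With the 12 arrays of the first day, in which other time points link the runs, and the run as a block, 30 probe sets passed in SHAM. Hspb1 (log2 difference 2.96 ± 0.21, adjusted p = 0.0467) and Hsph1 (2.62 ± 0.21, adjusted p = 0.0492) were the only 2 of the 73 genes among them. Hspa1a, Hspd1 and Dnaja1 did not pass there (log2 8.92, 2.09 and 1.70, adjusted p = 0.147, 0.168 and 0.421). Their standard errors there were 1.16, 0.30 and 0.41, and the fit had 3 residual degrees of freedom. All 0 h arrays of Hspa1a lay below the noise level. In that fit 70 of the 73 genes kept the sign of their SHAM difference, all but Mmp9, Pdgfa and Psmc4.

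**Figure D1:**
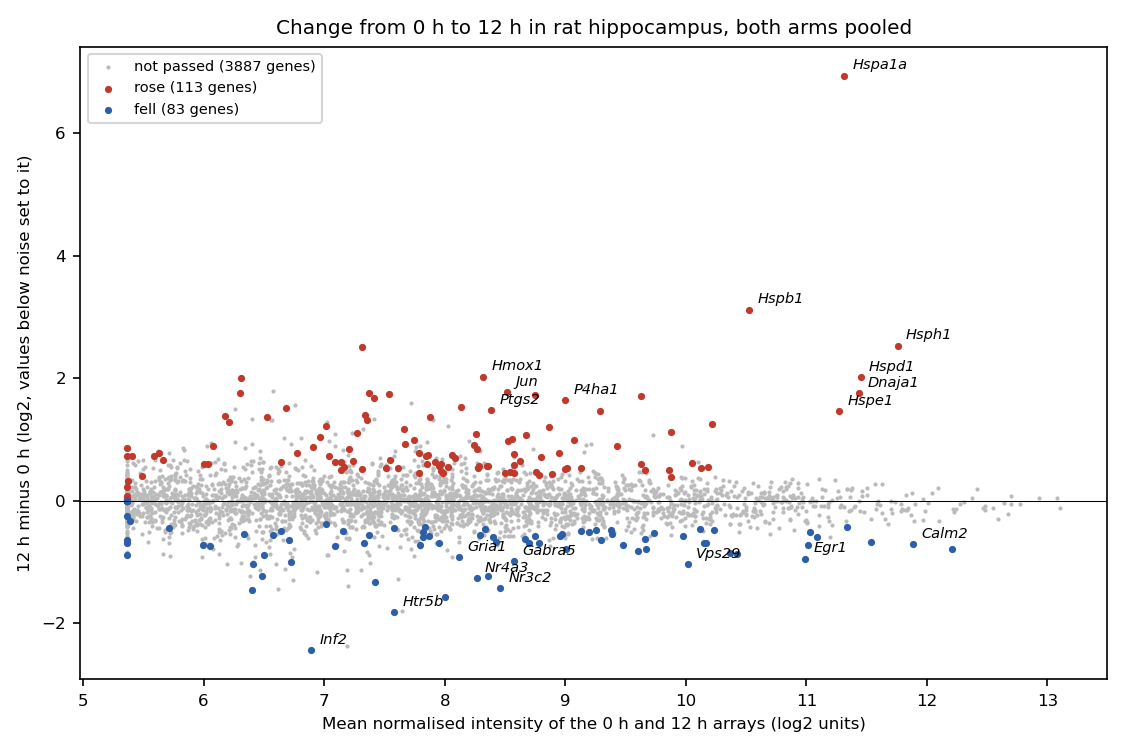
Difference between 12 h and 0 h (log2, y axis) against the mean normalised intensity of the 8 arrays (log2 units, x axis) for 4083 genes, each drawn as 1 point from its brightest probe set, with values below the noise level set to it. The 113 genes that rose are red and the 83 that fell are blue. Hspa1a lies far above all others, and Hsph1, Hspb1, Hspd1, Dnaja1 and Hspe1 are both bright and high.

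Of the 19 cytosolic heat shock proteins and co-chaperones measured, 9 rose (47.4%) and none fell, with a median log2 difference of 0.92 against -0.03 over all tested genes. The shares over all tested genes were 2.77% risen and 2.03% fallen, for this list and those below. Hspa1a read 24.9, 7.63, 22.7 and 12.8 units at 0 h (SHAM replicates 1 and 2, then TOL 1 and 2), all below the noise level of 41.2 units, and 5456, 5341, 4649 and 4839 units at 12 h. It was at least 123-fold higher at 12 h (adjusted p = 0.000344), and the groups were far apart in both arms. Its probe set may also detect near-identical Hsp70 genes.

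Hsph1 codes for Hsp110, which releases nucleotide from Hsp70 and helps it dissolve aggregates. It read 990.4, 1098, 1046 and 959.6 units at 0 h and 5970, 6134, 5863 and 5651 units at 12 h. All 4 arrays at 12 h lay within a narrow band far above the 0 h arrays, and the fold was 5.77 (log2 2.53 ± 0.07, adjusted p = 3.12e-05). Among the 73 genes, Hsph1 alone passed under all 22 alternative settings.

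The partners that hand substrates to Hsp70 rose too. Dnaja1, an Hsp40 co-chaperone, went from 1311, 1331, 1291 and 1139 units to 4533, 4610, 3895 and 4076 (log2 1.75 ± 0.07, adjusted p = 0.000192). Dnajb1, another Hsp40, went from 320.4, 370.3, 365.9 and 432.6 units to 1271, 1111, 1188 and 1267 (1.71 ± 0.10, adjusted p = 0.000856). For both, every 12 h array was well above every 0 h array. Stip1, which links Hsp70 to Hsp90, rose from 199 ± 24.8 to 659 ± 59.9 units (SD, n = 4; adjusted p = 0.00113).

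Dnaja4 (log2 1.11), the Hsp90 co-chaperone Chordc1 (1.47), the immunophilin Fkbp4 (1.21) and the Hsp70-interacting St13 (1.01) completed the 9. St13 missed the threshold without SHAM 12 h replicate 1 or 2 (adjusted p up to 0.0544), and the count for the list was 8 without SHAM 12 h replicate 1. Hspa4 (log2 0.92, adjusted p = 0.0589) and Hspa2 (0.69, adjusted p = 0.105) did not pass although all their 12 h arrays were higher. The constitutive Hsp90ab1, at 5103 ± 206 units at 0 h and 5802 ± 325 units at 12 h (log2 0.18, adjusted p = 0.247), did not pass either. Hsf1 itself read 263 units at 0 h and 370 units at 12 h on average, with overlapping groups (adjusted p = 0.205).

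Small heat shock proteins and mitochondrial chaperones formed the list with the largest share of rises, 7 of 10 measured (70%), with none falling and a median of 1.07. The list and its rises include Hmox1, which is an enzyme and no chaperone. Hspb1, the small heat shock protein Hsp27 that holds unfolded proteins and steadies actin, read 304.6, 338.6, 310.1 and 253.1 units at 0 h. At 12 h it read 2629, 2176, 2355 and 3402 units, higher in every array, an 8.68-fold rise (log2 3.12 ± 0.17, adjusted p = 0.000584). Of its 3 other probe sets, 2 also rose and 1 did not pass, at 478 units at 0 h and 554 at 12 h (log2 0.21, adjusted p = 0.423).

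The mitochondrial folding chamber is built from Hspd1 (Hsp60) and its lid Hspe1 (Hsp10). Hspd1 read 1150, 1117, 1078 and 1096 units at 0 h and 4893, 4452, 4385 and 4218 units at 12 h (log2 2.01 ± 0.07, adjusted p = 7.13e-05). Hspe1 read 1449, 1688, 1193 and 998.8 units at 0 h and 4019, 3799, 2943 and 3708 at 12 h (1.46 ± 0.13, adjusted p = 0.00335). For both genes the 0 h and 12 h arrays were clearly apart. Hspa9, the mitochondrial Hsp70 that draws proteins into the matrix, rose from 486 ± 59.6 to 892 ± 38.4 units (SD, n = 4; log2 0.88, adjusted p = 0.00862).

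Hmox1, the haem-degrading enzyme also known as Hsp32, read 117.9, 113.7, 137.8 and 120.2 units at 0 h and 488.2, 489.5, 342.4 and 746 units at 12 h. It was higher in every 12 h array but varied most in TOL (log2 2.03 ± 0.24, adjusted p = 0.0109). The nucleotide exchange factor Grpel1 (log2 0.57, adjusted p = 0.0165) and the crystallin Cryab (1.25, adjusted p = 0.0406) also rose. Hmox1 missed the threshold without SHAM 12 h replicate 1 (adjusted p = 0.051), Grpel1 without replicate 2 of SHAM 0 h or replicate 1 of SHAM 12 h (up to 0.0683), and Cryab without any 1 array other than TOL 12 h replicate 1 (up to 0.133). The list count was 4 without SHAM 12 h replicate 1.

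**Figure D2:**
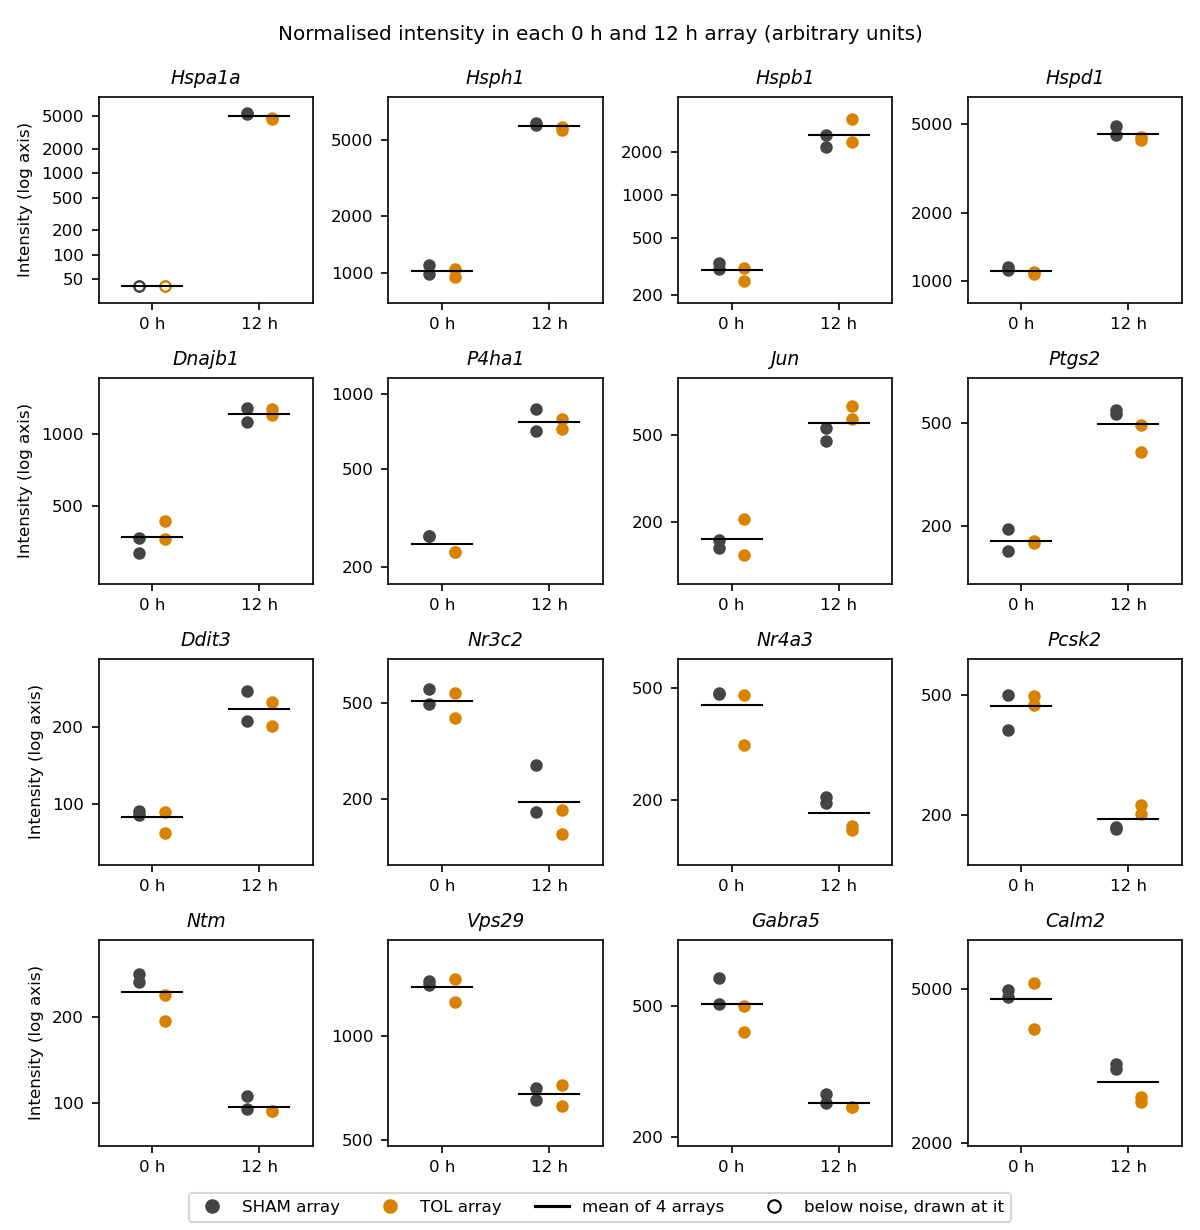
Normalised intensity (arbitrary units, log axis) in each SHAM (grey) and TOL (orange) array at 0 h and 12 h for 16 genes, with the mean of 4 arrays as a line and values below the noise level drawn open at it. In the first 9 genes, from Hspa1a to Ddit3, all 12 h arrays are higher. In the last 7, from Nr3c2 to Calm2, all are lower.

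The promoters of these chaperones were read for heat shock elements, since members that move together may share promoter letters. The sequences are from RefSeq (GRCr8, 250 bases before to 50 after the start of each gene), and 13 of the 16 rising chaperone genes had an entry. The 16 are the risers of both lists, with the enzyme Hmox1 among them. The 2-unit core was searched as GAANNTTC on both strands. The 3-unit element is this core with NNGAA added at its 3′ end or TTCNN at its 5′ end, so each 3-unit match also holds the core. The 3-unit element was in 5 of the 13 rising chaperone promoters (38.5%), in 0 of 10 chaperone promoters whose genes did not pass, in 0.597% of the promoters of all tested genes and in 0.736% of all 27457 promoters. The 2-unit core was in 9 of 13 (69.2%), 1 of 10, 5.68% and 8.34%. The 5 include Hspd1 and Hspe1, whose matches are one and the same stretch. Among the other 80 rising genes with a promoter, 1 held the 3-unit element and 6 the core (7.5%), and among the 65 falling ones none held the 3-unit element and 6 the core (9.23%).

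Stretches of 4 promoters are shown because they hold the matches of Hsph1, Hspb1 and the head-to-head pair Hspd1 and Hspe1, described above, with the matched letters in capitals and each read 5′ to 3′ on the gene's strand.
Hsph1, chr12:10427312-10427364, plus strand: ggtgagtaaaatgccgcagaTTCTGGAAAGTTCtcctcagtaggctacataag
Hspe1, chr9:64084242-64084299, plus strand: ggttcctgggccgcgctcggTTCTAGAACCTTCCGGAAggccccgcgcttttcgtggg
Hspd1, chr9:64084242-64084287, minus strand: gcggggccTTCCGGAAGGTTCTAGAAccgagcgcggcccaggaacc
Hspb1, chr12:26432383-26432450, minus strand: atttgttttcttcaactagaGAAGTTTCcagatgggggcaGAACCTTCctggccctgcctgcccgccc
In Hsph1 the capitals mark a 3-unit element at -36 to -24 from the start. Hspd1 and Hspe1 lie head to head with starts 290 bases apart, and the 46 bases shown for Hspd1 are the opposite strand of those shown for Hspe1, with a run of overlapping elements in capitals. The Hspb1 stretch holds 2 separate 2-unit cores. A match is a run of letters and no proof of binding. For Hspa1a no exact match to either pattern was found, which says nothing of other spellings or positions.

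Protein stress in the endoplasmic reticulum is read out by a different set of genes. Of 20 measured, 3 rose (15%, against 2.77% of all tested genes) and none fell, and the median was 0.10. Ppp1r15a, also called Gadd34, which restores translation after stress, read 86.9, 79.7, 89.6 and 85.0 units at 0 h and 307.8, 285.2, 226.4 and 329.2 at 12 h (log2 1.74 ± 0.14, adjusted p = 0.00254). Ddit3, the stress transcription factor CHOP, read 90.2, 94.1, 77.3 and 92.8 units at 0 h and 275.9, 211, 250 and 201.8 at 12 h (1.40 ± 0.13, adjusted p = 0.00426). Both genes were higher in every 12 h array and kept their calls whichever array was left out. The second probe set of Ppp1r15a went from 110 to 149 units on average and did not pass (log2 0.44, adjusted p = 0.0931).

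The third was Cebpg, a partner of the stress factor Atf4, below the noise level in all 0 h arrays and at 69.0 ± 11.5 units at 12 h, at least 1.66-fold higher (adjusted p = 0.0204). Its call held only without SHAM 0 h replicate 1 or 2 among the fits that left out 1 array (adjusted p otherwise up to 0.0775). The reticulum's own chaperones did not pass. Hspa5 (BiP) read 1165 ± 117 units at 0 h and 1459 ± 212 at 12 h (adjusted p = 0.257), and Hsp90b1, Calr and Pdia4 had log2 differences of 0.05, 0.09 and 0.09 (adjusted p = 0.803, 0.851 and 0.775).

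Immediate early genes moved both ways, 5 up and 3 down of 34 measured (14.7% and 8.82%, against 2.77% and 2.03% of all tested genes). Jun, a subunit of the AP-1 transcription factor, read 152.2, 166.2, 142 and 207.3 units at 0 h and 537, 470.4, 672.5 and 588.5 at 12 h (log2 1.77 ± 0.15, adjusted p = 0.00297). Ptgs2, the inducible cyclooxygenase Cox-2, read 194.7, 159.4, 174.6 and 171.1 units at 0 h and 559, 537.4, 487.3 and 385.9 at 12 h (1.48 ± 0.13, adjusted p = 0.00309). Both were higher in every 12 h array. A second, dimmer probe set of Ptgs2 did not pass (0.76, adjusted p = 0.0875). The transcription factor Klf10 rose from 98.0 ± 25.1 to 210 ± 55.5 units (1.10 ± 0.09, adjusted p = 0.00297).

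Nr4a3, an orphan nuclear receptor, went the other way. It read 476.5, 481.3, 472.2 and 313.8 units at 0 h and 195, 204.6, 161.7 and 155.7 at 12 h, lower in all 12 h arrays (log2 -1.27 ± 0.14, adjusted p = 0.00786). Its 2 other, dimmer probe sets overlapped between the times and did not pass (-0.01 and -0.28). Egr1, a zinc-finger factor tied to synaptic activity, read 3356, 3060, 2341 and 2005 units at 0 h and 1251, 1396, 1543 and 1289 at 12 h (-0.95 ± 0.17, adjusted p = 0.034). The Egr1 levels at 0 h were higher in SHAM than in TOL. The related Nr4a1 fell less (log2 -0.62, adjusted p = 0.0179), and the synaptic pentraxin Nptx2 and the phosphatase Dusp5 rose (0.99 each, adjusted p = 0.0144 and 0.0181).

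Among these, Nptx2, Dusp5 and Nr4a1 missed the threshold without any 1 of the 4 SHAM arrays (adjusted p up to 0.057, 0.0593 and 0.0654). Egr1 kept its call without replicate 2 of TOL 0 h or replicate 1 of TOL 12 h and lost it without any other array (up to 0.105). The counts were then 3 up and 1 down without any 1 SHAM array, and 2 down without replicate 1 of TOL 0 h or replicate 2 of TOL 12 h. Fos, the partner of Jun, was at 230 units at 0 h and 220 at 12 h on average with overlapping groups (log2 -0.06, adjusted p = 0.836), and Arc, a synaptic plasticity gene, at 704 and 1303 units (0.90, adjusted p = 0.0919).

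**Figure D3:**
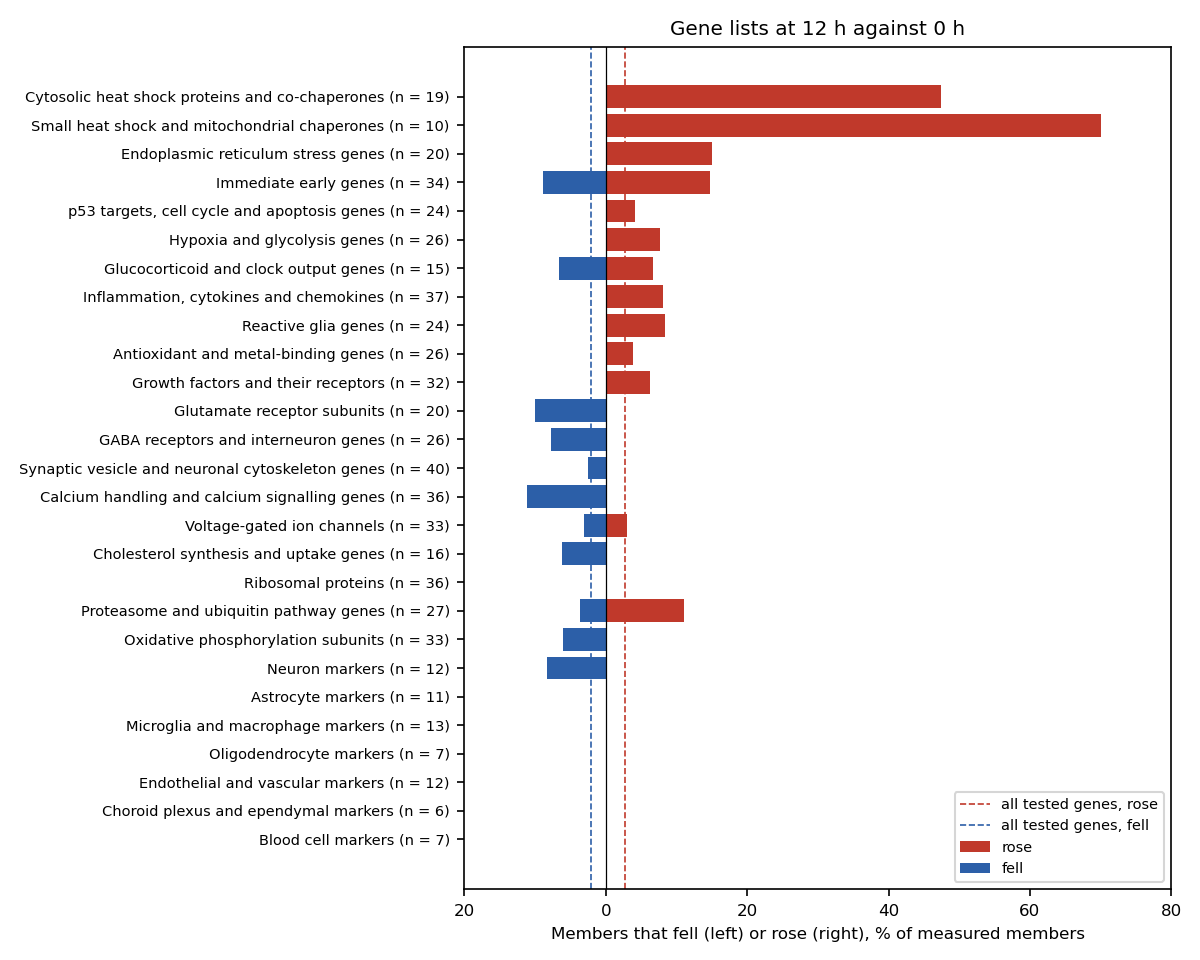
Share of the measured members of each of 27 gene lists that fell (blue, left) or rose (red, right) at 12 h, in percent, with the same shares over all 4083 genes as dashed lines. The longest bars to the right are those of the chaperone lists, with 9 of 19 and 7 of 10 members risen.

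Hypoxia and glycolysis genes gave 2 rises among 26 (7.69%, against 2.77% of all tested genes), a median of 0.01 and no fall. P4ha1, the prolyl hydroxylase subunit that matures collagen, read 266.6, 267.6, 228.7 and 229.5 units at 0 h and 706.9, 872.6, 723.5 and 793.5 at 12 h (log2 1.64 ± 0.10, adjusted p = 0.00074). All 12 h arrays of both arms were far above the 0 h arrays. Vegfa, the vascular growth factor, went from 131 ± 8.17 to 187 ± 15.7 units (0.51 ± 0.10, adjusted p = 0.0402), a call lost without any 1 of the 8 arrays (up to 0.114). The glycolytic enzymes Pgk1, Aldoa and Ldhb and the glucose transporter Slc2a1 had log2 differences of 0.00, 0.07, -0.11 and -0.07 and did not pass.

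In the other stress and injury lists few members passed. Rises made up 4.17% of the p53, cell cycle and apoptosis genes and 8.11% of the inflammation genes, against 2.77% of all tested genes. Mdm2, which degrades p53, was the 1 riser among 24 p53, cell cycle and apoptosis genes, from 77.6 ± 9.41 to 182 ± 33.3 units (log2 1.22, adjusted p = 0.0166). It kept its call only without TOL 0 h replicate 1 or 2 or TOL 12 h replicate 1 (otherwise up to 0.0634). Il6r, the interleukin-6 receptor chain, rose among 37 inflammation genes beside Ptgs2 and Mmp9. It read 53.8, 72.5, 43.0 and 44.7 units at 0 h and 148.1, 188, 122.9 and 148.2 at 12 h (1.52 ± 0.14, adjusted p = 0.00471), higher in every 12 h array.

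Of 32 growth factor and receptor genes Pdgfa and Vegfa rose (6.25%), and of 26 antioxidant genes Hmox1 alone did (3.85%), with medians of -0.05 and -0.07. Several rises stood close to the noise level. Pdgfa, a growth factor chain, was below noise in all 0 h arrays and at 76.5 ± 17.1 units at 12 h, at least 1.82-fold higher (adjusted p = 0.0025), and kept its call whichever array was left out. A second Pdgfa probe set averaged 18.3 units at 0 h and 17.8 at 12 h and did not pass (adjusted p = 0.868). The matrix protease Mmp9 (at least 1.65-fold, adjusted p = 0.0332) and the annexin Anxa1 (at least 1.24-fold, adjusted p = 0.032) were also below noise at 0 h. Among the fits that left out 1 array, Mmp9 passed only without SHAM 0 h replicate 2 and Anxa1 only without TOL 0 h replicate 1 (otherwise up to 0.1 and 0.0929). Of 24 reactive glia genes Anxa1 and Hspb1 rose (8.33%), while Vim, at 112 units at 0 h and 309 at 12 h, overlapped between groups (adjusted p = 0.159).

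Of the 15 largest rises, 4 were of genes outside the lists: Rrad, Alg10, Azi2 and Ryk. Azi2, an adaptor of the kinase Tbk1, read 88.5, 80.4, 61.5 and 71.5 units at 0 h and 278, 270.8, 205.2 and 269.5 at 12 h (log2 1.76 ± 0.12, adjusted p = 0.00113). Ryk, a Wnt receptor, read 95.9, 96.3, 63.2 and 72.2 units at 0 h and 266.6, 295.9, 204.9 and 272.3 at 12 h (1.68 ± 0.13, adjusted p = 0.00226). Neither changed its call when an array was left out. All 12 h arrays were higher, as the choice of the largest rises required.

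Rrad, a small GTPase that restrains calcium channels, was at 257 to 298 units at 12 h, with 3 of its 4 arrays at 0 h below noise (adjusted p = 0.0218). The glucosyltransferase Alg10 (0 h mean below 0, 12 h 172 ± 47.2 units, adjusted p = 0.0289) and the potassium channel Kcnj11, the 1 riser among 33 channel genes (below noise in all 0 h arrays, 148 ± 58.6 units at 12 h, adjusted p = 0.0362), were dim as well. The share of channel genes that rose, 3.03%, was near that of all tested genes, 2.77%. Among the fits that left out 1 array, Rrad passed only without TOL 0 h replicate 1 or 2, and Alg10 and Kcnj11 only without SHAM 0 h replicate 1 (adjusted p otherwise up to 0.0815, 0.0903 and 0.101).

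Steroid and clock genes gave 1 rise and 1 fall among 15 (6.67% each, against 2.77% and 2.03% of all tested genes). Nr3c2, the mineralocorticoid receptor, which is abundant in hippocampal neurons, read 567.7, 495.8, 547.9 and 431.9 units at 0 h and 177.6, 276.2, 144 and 181.3 at 12 h (log2 -1.43 ± 0.19, adjusted p = 0.0153). It was lower in every 12 h array of both arms, while its second probe set did not pass (-0.44, adjusted p = 0.504). In bulk tissue, fewer cells of a type and less RNA per cell cannot be told apart, here and for the genes below. Per2, a core clock gene, went up, from 95.4 ± 28.6 to 231 ± 27.5 units (1.32 ± 0.16, adjusted p = 0.0121).

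The clock output gene Dbp averaged 284 units at 0 h and 7.08 at 12 h, lower in all 12 h arrays, but did not pass (adjusted p = 0.0591), and the glucocorticoid receptor Nr3c1 (119 and 67.7 units, adjusted p = 0.0958) did not either. Nr3c2 missed the threshold (adjusted p up to 0.0566) when the first replicate of SHAM was left out at 0 h or at 12 h, and Per2 without SHAM 12 h replicate 1 or 2 (up to 0.0534). Since the time of day is not given, a difference of clock time between the groups was not tested.

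The 15 largest falls included the receptor and channel genes Htr5b, Kcnd2, Kcnv1, Gabra5 and Gria1, grouped here after their values were seen. In the lists, 3.03% of the channel genes fell and 3.03% rose. Of the GABA and interneuron genes 7.69% fell, against 2.03% of all tested genes. Gabra5, a GABA receptor subunit concentrated in the hippocampus, read 607.3, 505.8, 417.6 and 498.8 units at 0 h and 253.7, 269.5, 247 and 246.6 at 12 h (log2 -0.99 ± 0.11, adjusted p = 0.00801). All 12 h arrays were lower, as the choice of the largest falls required, and the call held whichever array was left out. A second, dimmer Gabra5 probe set overlapped between the times and did not pass (-0.33, adjusted p = 0.426). Htr5b, a serotonin receptor, read 329.8, 316.6, 209.2 and 332.4 units at 0 h and 69.1, 89.8, 64.6 and 116.6 at 12 h (-1.82 ± 0.25, adjusted p = 0.0184). The potassium channel Kcnd2 fell from 380 ± 57.6 to 133 ± 52.1 units (-1.57, adjusted p = 0.0353) and the channel subunit Kcnv1 from 127 ± 11 to 42.8 ± 14.9 (-1.62, adjusted p = 0.0204).

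The AMPA receptor subunits Gria1 and Gria2 were the 2 that fell of 20 glutamate receptor genes (10%), with a list median of -0.39. Gria1 went from 366 ± 109 to 188 ± 33.6 units (log2 -0.92, adjusted p = 0.0485) and Gria2 from 978 ± 104 to 638 ± 96 (-0.62, adjusted p = 0.0471). Gabrb2, another GABA receptor subunit, fell from 1204 ± 95.5 to 806 ± 72.6 units (-0.58, adjusted p = 0.0363). None of the 20 glutamate receptor genes rose. Gabra5 and Gabrb2 were the 2 of 26 GABA and interneuron genes that fell (median -0.05). Nefm was the 1 of 40 synaptic and cytoskeletal genes (2.5%, median -0.18), near the 2.03% of all tested genes.

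Most of these falls rested on all arrays together. Gria2 and Gabrb2 passed in none of the 8 fits that left out 1 array and Gria1 only without TOL 0 h replicate 2 (adjusted p otherwise up to 0.123, 0.114 and 0.141). Htr5b missed without any 1 SHAM array (up to 0.068), Kcnd2 without any array other than TOL 0 h replicate 2 or TOL 12 h replicate 1 (up to 0.109), and Kcnv1 without any SHAM array or TOL 0 h replicate 1 (up to 0.0742). When all 24 arrays shared the estimate of the spread, 6 of the 20 glutamate receptor genes fell, and 11.3% of all probe sets passed, 5.57% lower.

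Calcium handling genes gave 4 falls (11.1%, against 2.03% of all tested genes) and no rise among 36, with a median of -0.16. Calm2, which codes for the calcium sensor calmodulin, read 4975, 4763, 5179 and 3942 units at 0 h and 3203, 3099, 2629 and 2547 at 12 h (log2 -0.72 ± 0.11, adjusted p = 0.0224). The plasma membrane calcium pumps Atp2b1 (-0.70 ± 0.08, adjusted p = 0.0113) and Atp2b3 (-0.58 ± 0.10, adjusted p = 0.032) fell as well. So did Itpr1, the receptor that releases calcium from internal stores (-0.69 ± 0.10, adjusted p = 0.0205). In the brightest probe set of each of these genes all 12 h arrays were lower than all 0 h arrays. The dimmer probe sets of Atp2b1, Atp2b3 and Itpr1 did not pass. Those of Atp2b3 overlapped between the times (log2 -0.19 and -0.39, adjusted p = 0.488 and 0.41).

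The calcium count was 0 without SHAM 12 h replicate 1 and at most 3 without another array. Atp2b1 missed only there (adjusted p = 0.0525). Calm2 passed only without TOL 0 h replicate 1 or 2, Itpr1 only without replicate 2 of TOL 0 h or either array of TOL 12 h, and Atp2b3 only without SHAM 0 h replicate 1 (otherwise up to 0.074, 0.0775 and 0.102).

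Other falls were steadier. Pcsk2, the protease that processes neuropeptides, read 501, 381.9, 464 and 494.8 units at 0 h and 181.1, 182.5, 216.3 and 201.6 at 12 h (log2 -1.23 ± 0.11, adjusted p = 0.00309). Ntm, the adhesion protein neurotrimin, read 282.4, 266, 238.8 and 193.4 units at 0 h and 94.8, 105.5, 93.4 and 93.7 at 12 h (-1.33 ± 0.11, adjusted p = 0.00282). Vps29, a part of the retromer that recycles membrane proteins, read 1411, 1449, 1464 and 1257 units at 0 h and 708.4, 652.9, 721.7 and 628.3 at 12 h (-1.04 ± 0.09, adjusted p = 0.00327). All 3 kept their calls whichever array was left out. Their 12 h arrays of both arms were all lower, as the choice of the largest falls required. A second, dimmer probe set of Pcsk2 did not pass (-0.62, adjusted p = 0.0919).

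The fall with the largest size, Inf2, an actin-severing formin, read 315.4, 244.6, 115.9 and 285.8 units at 0 h and was below noise in all 12 h arrays, at least 5.45-fold lower (adjusted p = 0.0233). It passed only without replicate 1 of TOL 0 h or replicate 2 of TOL 12 h when 1 array was left out (otherwise up to 0.0881). Nefm, a neurofilament subunit, was the 1 of 12 neuron markers that fell, from 597 ± 68.1 to 407 ± 42.2 units (adjusted p = 0.0275), and passed only without replicate 2 of TOL 0 h or replicate 1 of TOL 12 h (otherwise up to 0.0929).

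The markers of cell types were compared as lists beside these changes. The summed level of the 12 neuron markers was 15584 to 17120 units at 0 h and 12991 to 16083 at 12 h. Their median log2 difference was -0.23 (-0.38 in SHAM and -0.24 in TOL), against -0.03 over all tested genes. None of the markers of astrocytes (11 measured), microglia (13), oligodendrocytes (7), endothelium and vessels (12), choroid plexus (6) or blood (7) passed. The medians of these other lists lay between -0.15 and 0.23. The sums overlapped for most of these: 19209 to 20663 and 18346 to 19447 units for astrocytes, 2603 to 2911 and 2844 to 3201 for microglia, and 14540 to 18707 and 13595 to 15718 for oligodendrocytes. Choroid plexus sums ran from 1284 to 5675 units at 0 h and from 1072 to 6585 at 12 h, and blood sums from 3552 to 5336 and from 4413 to 6219. Endothelial and vascular sums were lower at 12 h, 1515 to 2283 against 1198 to 1446 units, with Vwf, Kdr and Pdgfrb below noise at both times on average. The part of cell composition in the changes above was not tested.

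Genes of basic cell functions came last. None of 36 ribosomal protein genes passed (median 0.03). Of 27 proteasome and ubiquitin genes, Psmc4, Psmb2 and Psmc2, which code for proteasome subunits, rose with log2 differences of 0.54, 0.55 and 0.53 (adjusted p = 0.0204, 0.0218 and 0.0285). The neuronal hydrolase Uchl1 fell from 2973 ± 117 to 2211 ± 83.5 units (adjusted p = 0.031). These were shares of 11.1% up and 3.7% down, against 2.77% and 2.03% of all tested genes. None of these 3 rises survived the loss of any 1 SHAM array (adjusted p up to 0.0788, 0.0788 and 0.0994), and Uchl1 passed in none of the 8 fits that left out 1 array (up to 0.102).

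Of 33 oxidative phosphorylation subunits, Uqcr11 (from 2625 ± 138 to 1736 ± 86.1 units, adjusted p = 0.0139) and Cox6b1 (from 2456 ± 151 to 1717 ± 123, adjusted p = 0.034) fell, with a list median of -0.23. That was 6.06% of the list, against 2.03% of all tested genes. Uqcr11 missed without any 1 SHAM array (up to 0.0615), and Cox6b1 without any array other than TOL 0 h replicate 2 or TOL 12 h replicate 1 (up to 0.111). Sqle, which makes squalene epoxide, was the 1 fall among 16 cholesterol genes (6.25% of them, log2 -0.70, adjusted p = 0.0283) and passed only without TOL 12 h replicate 1 (otherwise up to 0.0926).

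The arms were then set side by side, to see how far the response was shared. The SHAM and TOL differences use no array in common. Fitted with all 24 arrays, 412 probe sets passed in SHAM (5.81%; 3.07% higher, 2.74% lower) and 317 in TOL (4.47%; 2.51% higher, 1.96% lower). Of the SHAM calls 36.7% were also called in TOL, and of the TOL calls 47.6% in SHAM, 151 probe sets, of which 147 moved the same way. The sign was the same in the other arm for 90.3% of the SHAM calls and 89.6% of the TOL calls, against 60.2% of all tested probe sets. Across all tested probe sets the differences of the arms correlated at r = 0.295, as a description of probe sets that share arrays. Across the 578 called in either arm r was 0.674. Those were picked by the same differences, which can raise r, so this value is no separate support for a shared response. The 341 pooled calls had the same direction in both arms, as a fit with arm as a block favours.

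The leading genes had similar values in both arms. Hsph1 had log2 differences of 2.54 in SHAM and 2.52 in TOL, Hspb1 2.90 and 3.34, and the differences between arms did not pass (adjusted p = 0.995 and 0.843). The number of calls in one arm moved with single arrays, from 176 without SHAM 12 h replicate 2 to 241 without SHAM 0 h replicate 1 in SHAM, and from 110 without TOL 0 h replicate 1, through 157 without TOL 12 h replicate 2, to 260 without TOL 0 h replicate 2 in TOL. In SHAM it was 202 without SHAM 12 h replicate 1 and 216 without SHAM 0 h replicate 2.

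**Figure D4:**
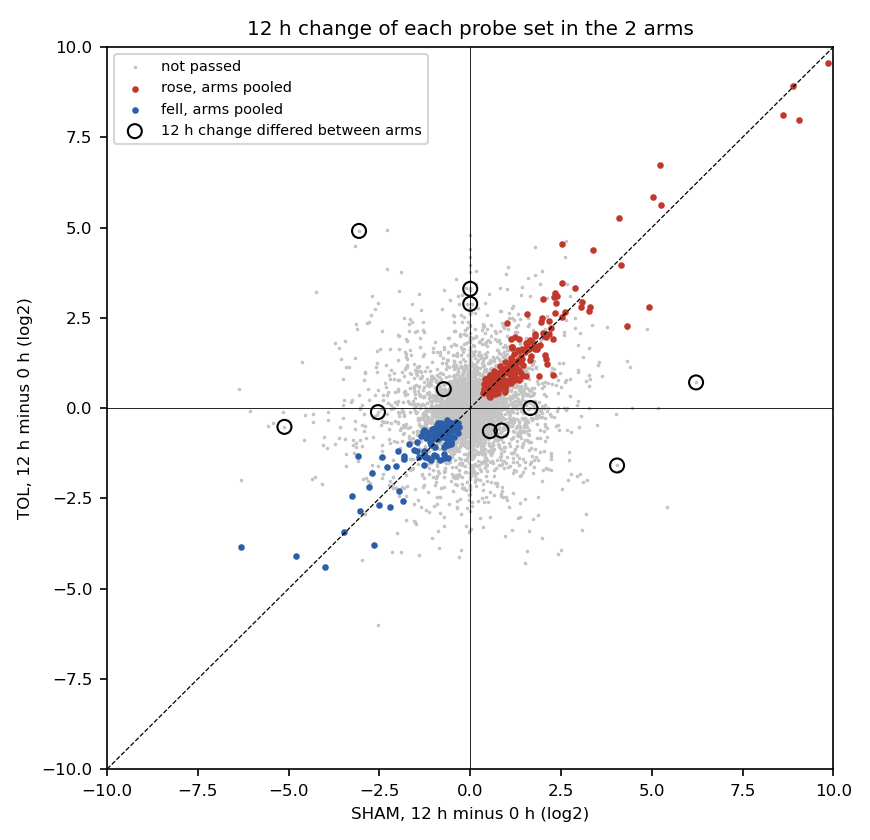
Difference between 12 h and 0 h (log2) in TOL (y axis) against that in SHAM (x axis) for the 7092 tested probe sets, with the 204 pooled rises in red, the 137 pooled falls in blue and the 11 probe sets whose difference differed between the arms circled. The pooled calls lie along the dashed line of equal change, and the circled ones away from it.

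A test of the difference itself found 11 probe sets (0.155%) whose 12 h change differed between the arms, 6 more positive in TOL (0.0846%) and 5 more negative (0.0705%), with 640 at an unadjusted p under 0.05. Entpd2, an enzyme that splits extracellular ATP, read 105.2 and 139.5 units at 0 h in SHAM and was below noise in both 12 h arrays. In TOL it read 127.5 and 204.3 units at 0 h and 152.7 and 82.8 at 12 h (adjusted p of the difference between arms 0.000126). Grk1, rhodopsin kinase, read 249.5 and 283.6 units at 0 h and 158.9 and 162.7 at 12 h in SHAM, and 159.2, 158.3, 223.2 and 233.2 in TOL (adjusted p = 0.00513). Grk1 changed in opposite directions, with SHAM above TOL at 0 h and below it at 12 h. Both genes kept this call whichever array was left out, but neither passed when the 8 arrays were fitted alone (adjusted p = 0.0616 and 0.0744), where the count over all probe sets was 33. The Entpd2 call was also lost with the floor at the 40th percentile (adjusted p = 0.271) and on log2(value + 50) (adjusted p = 0.116).

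Finally, 12 h was placed in the course. Against the mean of 3 h and 24 h in both arms, 70 probe sets passed (0.987%), 31 higher (0.437%) and 39 lower (0.55%). Counted as genes they were 40 (0.98%), 17 higher (0.416%) and 23 lower (0.563%). The 12 h arrays are the same as in the comparison with 0 h. Rilpl2, a protein that guides cargo into cilia, averaged 133, 155, 176, 338, 243 and 181 units at 0, 1, 3, 12, 24 and 48 h. Its 4 arrays at 12 h, 292.7 to 364.9 units, all lay above those of every other time (log2 0.71 ± 0.13 against 3 h and 24 h, adjusted p = 0.0181).

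Chaperones differed in their course. Hspa1a averaged 17.0, 2507, 2633, 5071, 4317 and 1581 units over the 6 times, so that it was already high at 1 h. Hspb1 stayed at 302, 455 and 466 units up to 3 h and then stood at 2641, 2631 and 1709. Hsph1 averaged 1024, 1917, 2535, 5904, 6314 and 3384 units, and Hspd1 1110, 1456, 1799, 4487, 4897 and 1939. Hmox1 and Cryab averaged 517 and 1685 units at 12 h but 218 and 1107 at 24 h.

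The 12 h arrays of Hspb1, Hsph1 and Hspd1 lay above all 3 h arrays and overlapped those at 24 h. Against the mean of 3 h and 24 h their log2 differences were 1.25, 0.57 and 0.61 (adjusted p = 0.00931, 0.0143 and 0.00794), while that of Hspa1a was 0.60 and did not pass (adjusted p = 0.386). P4ha1 (0.70, adjusted p = 0.013) and Azi2 (0.77, adjusted p = 0.00185) had the shape of Hspb1, Hsph1 and Hspd1. At 3, 12 and 24 h P4ha1 averaged 316, 774 and 730 units and Azi2 91.7, 256 and 246 units. The 12 h arrays of Hspa1a, 4649 to 5456 units, lay above all its 3 h arrays, 2126 to 3292 units. Its 24 h arrays, 4019 to 4649 units, reached only the lowest 12 h value. The spread in this test is shared by all 24 arrays and so includes the 0 h arrays of Hspa1a, all below noise.

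Immediate early genes also differed in their course. Egr2, a zinc-finger factor, averaged 34.6, 307, 167, 41.5 and 43.5 units at 0, 1, 3, 12 and 24 h. Nr4a3 averaged 436 units at 0 h, 811 at 1 h and 573 at 3 h and then dropped to 179, 189 and 145 units. Both were lower at 12 h than the mean of 3 h and 24 h (log2 -1.01 and -0.87, adjusted p = 0.00185 and 0.00303). Jun peaked at 1 h with 1067 units and was still at 567, 794 and 761 units from 12 h on (12 h against 3 h and 24 h -0.58, adjusted p = 0.0527). Ptgs2 stayed at 527, 492 and 494 units from 3 h to 24 h, and Nptx2 averaged 634, 923, 717, 849 and 1077 units from 1 h to 48 h.

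The kinase phosphatase Dusp6 averaged 1479 units at 3 h, 710 at 12 h and 817 at 24 h (log2 -0.63, adjusted p = 0.0276), and the membrane protein Myadm 577, 196 and 149 (-0.60, adjusted p = 0.0114). Kcnv1 had its lowest average of the course at 12 h, 42.8 units, against 91.9 at 3 h and 72.4 at 24 h (-0.96, adjusted p = 0.0335). Nr3c2 and Calm2, in contrast, went down stepwise: Nr3c2 averaged 511, 440, 333, 195, 119 and 106 units and Calm2 4715, 3954, 3627, 2870, 2903 and 2921. Neither differed from the mean of 3 h and 24 h by the test (adjusted p = 0.976 and 0.366).

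Without SHAM 12 h replicate 2 the count against 3 h and 24 h was 33 in place of 70, the lowest among the fits that left out 1 array. Rilpl2 missed the threshold without either SHAM 12 h array or TOL 12 h replicate 2 (adjusted p up to 0.0979), P4ha1 without SHAM 12 h replicate 2 or TOL 12 h replicate 2 (up to 0.0803), and Hsph1 and Myadm without SHAM 12 h replicate 2 (0.0698 and 0.0565). Dusp6 passed in 5 and Kcnv1 in 4 of the 12 fits that each left out 1 array of 3, 12 or 24 h (otherwise up to 0.102 and 0.139). The calls of Hspb1, Hspd1, Azi2, Egr2 and Nr4a3 held in all 12. On the deposited scale, without normalisation, Egr2, Nr4a3 and Kcnv1 passed, while Hspb1, Hspd1, Hsph1, Azi2, P4ha1, Rilpl2, Dusp6 and Myadm did not (adjusted p from 0.0888 for Hspb1 to 0.185 for Rilpl2).

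**Figure D5:**
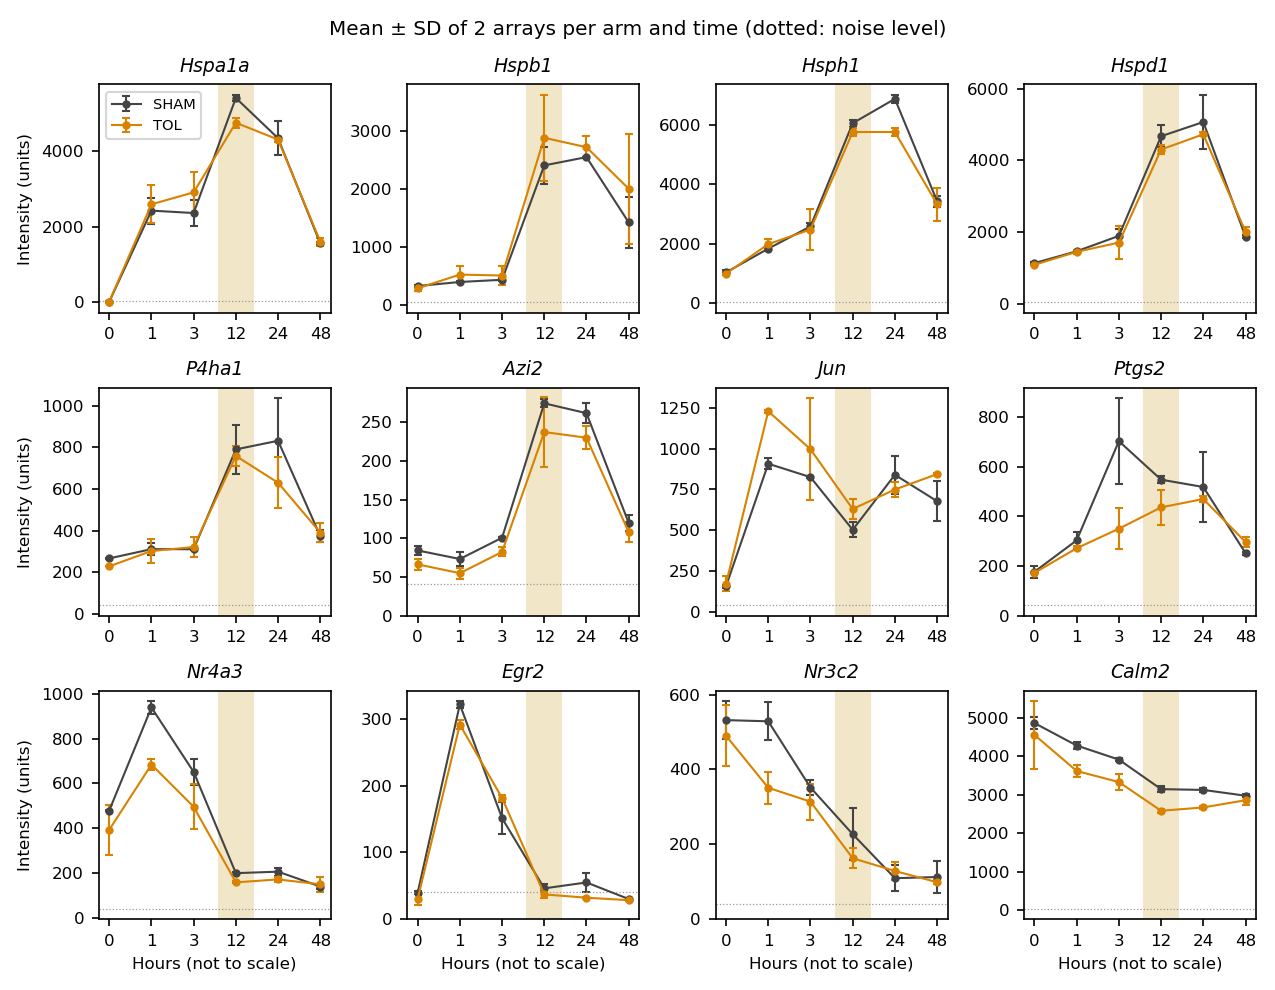
Mean ± SD of 2 arrays per arm (SHAM grey, TOL orange) at 0, 1, 3, 12, 24 and 48 h for 12 genes, as normalised intensity in arbitrary units with 12 h shaded, times evenly spaced and the noise level dotted. Hspb1, Hsph1, Hspd1, P4ha1 and Azi2 step up between 3 h and 12 h, Jun, Nr4a3 and Egr2 are highest at 1 h, and Nr3c2 and Calm2 go down in steps.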

How the data were processed

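Total RNA of rat hippocampus was hybridised to an Affymetrix rat array. Each probe set has a deposited intensity per array on a linear scale, which the authors had computed, with 21.9% to 24.5% of an array's values at or below 0. No source used here gives the software or scaling. The deposited experiment files (other values: hybridisation day and fluidics record) gave the batches. Fluidics runs, 6 in all, were inferred from gaps of at most 5 minutes.

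The 24 arrays were quantile normalised, floored at their 25th percentile (3.49 units) and log2 transformed. The array has 8799 probe sets. Leaving out 59 controls, those above the floor in each replicate of at least 1 group, 7092, were tested. By the platform annotation 7018 probe sets matched 1 gene, 308 several and 1473 none. Each gene was represented by its brightest tested probe set, and of 39 named genes with several none had opposite calls. Part of them had a further probe set that did not pass, which is given above for some genes only. The noise level, 41.2 units, is the 99th percentile over 1957 probe sets with a mean not above 0. Where 1 group lay below it, a fold is a lower bound computed with it.

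The main fit (limma 3.58.1, R 4.3.3) used 8 arrays with arm and time (5 residual degrees of freedom, 1.16 prior). Arm differences, single arms and 12 h against 3 h and 24 h used a mean per group over 24 arrays (12 and 1.47). Tests were two-sided and adjusted over all 7092 probe sets. Alternatives covered scaling, floor, filter, batches, a replicate block and each array left out. The main fit had no replicate block. Differences between replicates 1 and 2 correlated weakly between groups (-0.168 to 0.0884 over 6 pairs of groups). Such correlations cannot decide whether arrays with the same replicate number belong together. Named genes were the 15 largest rises and falls with groups that did not overlap, up to 4 called members per list, the 8 smallest p of the arm difference and the 8 largest changes each way against 3 h and 24 h, some left out for length. Other members that passed, members given as not passed and the time courses were chosen after their values were seen. The 27 gene lists and the comparison were chosen with earlier results of these data known. Figures used Python 3.11.15, numpy 2.4.6 and matplotlib 3.10.9.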

Additional observations from a re-analysis of the deposited data

Results flagged for a closer look

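Single arrays stood apart from the other 3 of their time by Dixon's test in 9 of 178 groups of 4 arrays, and chance flags about 1 in 20. At 0 h these were SHAM 0 h replicate 1 for Alg10 (42.7 units), TOL 0 h replicate 1 for Htr5b (209 units) and Nup155 (73.7 units), TOL 0 h replicate 2 for Nr4a3 (314 units) and SHAM 0 h replicate 2 for Vegfa (119 units). At 12 h they were TOL 12 h replicate 1 for Azi2 (205 units) and the amino acid transporter Slc7a1 (317 units), SHAM 12 h replicate 2 for Ntm (106 units) and TOL 12 h replicate 2 for Fkbp4 (743 units).

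The change from 0 h to 12 h differed between the arms by limma's test of the difference for 6 named genes. The TOL change minus the SHAM change was 4.59 on the log2 scale for Entpd2, 7.97 for the splicing factor Sart1, 1.25 for Grk1, -1.48 for the sialyltransferase St6galnac3, -1.18 for the synaptic scaffold Cask and 2.89 for the transcription factor subunit Taf1c. Sart1 was above the noise level only in the TOL 12 h arrays, Taf1c in none of the 8, and both SHAM 12 h values of Entpd2 were below 0, so the fitted values of these 3 genes depend on the floor. With the floor at the 40th percentile that of Entpd2 was 1.19 and did not pass (adjusted p = 0.271). St6galnac3 missed the threshold without SHAM 12 h replicate 2 (adjusted p = 0.0977), Cask without SHAM 0 h replicate 2, SHAM 12 h replicate 2, TOL 0 h replicate 1 or TOL 12 h replicate 2 (up to 0.216), and Taf1c without any array other than TOL 12 h replicate 1 (up to 0.183).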

How the results depend on the processing

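The pooled count of 341 probe sets became 121 on the deposited scale (where the median log2 difference was -0.22), 533 with the floor at the 40th percentile, 804 with 24 arrays, 86 within SHAM, 40 within TOL and 176 with the hybridisation day as a block (70.5% higher, against 59.8%), and 106 to 262 with 1 array left out. The difference between arms, 11 probe sets, became 5 with the higher floor, 3 on log2(value + 50) and 33 with 8 arrays, and 8 to 33 with 1 array left out. Against 3 h and 24 h the count of 70 became 28 on the deposited scale, and 33 to 99 with 1 array left out. SHAM alone went from 412 to 143 on the deposited scale, 176 to 241 with 1 array left out and 30 with the run as a block on the first day, an alternative chosen after seeing the data. TOL alone went from 317 to 153 with the day as a block and 110 to 260 with 1 array left out. On the deposited scale 25.3% of the TOL calls were higher, against 56.2%, and 28.6% of those against 3 h and 24 h, against 44.3%. The causes were not tested, beyond fewer arrays or another floor.

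With the replicate number as a block the pooled count was 219 and that between arms 7. Whether the numbers pair the samples was not settled. Of 1606 values of 73 genes under 22 settings, 456 missed the threshold and 0 changed sign. These settings leave out the first-day fit of SHAM with the run as a block, in which Mmp9, Pdgfa and Psmc4 changed sign. Arrays and signal over noise limit the precision.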

Other observations

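A family whose tested members lie outside the lists was described after its values were seen. The share of all tested genes that fell was 2.03%. All 4 tubulin genes tested fell at 12 h, Tuba4a from 991 ± 110 to 561 ± 50 units (log2 -0.82, limma adjusted p = 0.0203), Tubb2b from 1035 ± 59.8 to 598 ± 69.8 (-0.80, adjusted p = 0.0203), Tuba1b from 5976 ± 417 to 3472 ± 400.3 (-0.79, adjusted p = 0.0186) and Tubb5 from 2585 ± 198 to 1556 ± 157 (-0.73, adjusted p = 0.0204). Every 12 h array was below every 0 h array in each. Tubulins are the subunits of microtubules, and their near-identical sequences may share probes. With 1 array left out, Tuba4a missed the threshold without any 1 SHAM array (adjusted p up to 0.0742), and Tubb2b without SHAM 0 h replicate 1 or 2 or SHAM 12 h replicate 2 (up to 0.0715). Tuba1b missed it without any 1 SHAM array or TOL 12 h replicate 2 (up to 0.0728), and Tubb5 passed only when the second replicate of SHAM or of TOL at 0 h was left out (otherwise up to 0.0644).

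Slc7a1, a transporter of cationic amino acids, rose from 144 ± 19.2 to 416 ± 67.1 units (log2 1.52, adjusted p = 0.00264) and kept its call whichever array was left out. Tars1, which loads threonine onto its transfer RNA, rose from 209 ± 17.3 to 395 ± 77.7 units (0.90, adjusted p = 0.0278), a call that among the fits with 1 array left out held only when the second TOL replicate of 0 h or of 12 h was left out (otherwise up to 0.0907).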
